A study of Mus musculus with 9 samples.

Results

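The genes described here are 9 genes of the MHC class II antigen presentation pathway, measured in mouse mammary tumours grown from the cell lines NDL, Met1 and SSM2. They are H2-Aa, H2-Ab1, H2-Eb1, H2-Oa, H2-Ob, H2-DMa, Cd74, Ciita and Ctss. Each was found by its symbol among the array features annotated with exactly 1 gene, and each had 1 such feature, so the set makes up 9 of the 19938 genes measured. H2-DMb1 and H2-DMb2 share a feature annotated with several genes and were not analysed here.

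Total RNA came from 9 snap-frozen tumour samples, 3 per line, each hybridised to an Affymetrix Mouse Gene 1.0 ST array. By origin, the cells of NDL express an activated ErbB2 (neu) transgene under the MMTV promoter. Met1 derives from a tumour of polyoma middle T transgenic mice, also under the MMTV promoter, while SSM2 expresses hormone receptors. Each line was grown in culture and placed bilaterally in uncleared fat pads. Hosts were FVB/NJ females, 6 to 8 weeks old, and harvest was at a tumour width of 5 to 10 mm. The labels give the strain FVB/N for every sample and name no other allele, agent or treatment. FVB/NJ mice have a working immune system, and each sample can hold host cells beside cells of the injected line. Each line is a single established line, and the labels do not say that the samples of a line came from separate animals or tumours. Each p therefore measures the spread between samples, which may be technical. In such bulk samples, fewer cells of a type and less RNA per cell cannot be told apart.

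MHC class II molecules display peptides from endosomal proteins to CD4 T cells, and are made mainly by dendritic cells, macrophages and B cells. An alpha and a beta chain pair on the invariant chain (Cd74), which cathepsin S (Ctss) trims in endosomes, after which the DM complex exchanges the remaining invariant chain peptide for antigen, with the DO complex as its modulator. The coactivator CIITA (Ciita) switches the set on by docking on factors bound at the X and Y boxes of the promoters, and interferon gamma can induce it in other cell types, including epithelium.

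RefSeq promoter windows (GRCm38.p6, the C57BL/6J reference) were used for 6 of the 9 genes, in 7 windows running from 250 bases before to 50 bases after an annotated gene start. H2-Ab1, Cd74 and Ciita were not analysed here for sequence. The windows were searched on both strands for an X box core, GCAAC, followed after 10 to 40 bases by a Y box core, GATTGG, which is a CCAAT box read on the other strand. The search was chosen after the sequences had been seen. Of the 32851 promoter windows of all genes, 35.2% held the X core, 16.1% the Y core and 0.502% the pair in this order and spacing. The pair was present in 4 of the 7 windows, each of a different gene, so in 4 of the 6 genes. As the search was chosen with these sequences seen, that share was not tested against the share of all windows. They are shown because H2-Eb1, which had a pattern of its own among the lines, carries the same layout as H2-Aa, H2-Ob and H2-Oa. The sequences are those of the reference strain, and the promoters of the lines and hosts were not examined. Each is printed 5′ to 3′ on the strand of the gene, with both cores in capitals.
H2-Eb1: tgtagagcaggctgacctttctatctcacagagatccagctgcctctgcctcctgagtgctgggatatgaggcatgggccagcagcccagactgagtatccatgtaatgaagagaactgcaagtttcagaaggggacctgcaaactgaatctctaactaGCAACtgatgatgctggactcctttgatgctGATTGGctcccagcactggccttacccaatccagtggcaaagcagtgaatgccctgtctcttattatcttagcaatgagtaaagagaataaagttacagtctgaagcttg
H2-Aa: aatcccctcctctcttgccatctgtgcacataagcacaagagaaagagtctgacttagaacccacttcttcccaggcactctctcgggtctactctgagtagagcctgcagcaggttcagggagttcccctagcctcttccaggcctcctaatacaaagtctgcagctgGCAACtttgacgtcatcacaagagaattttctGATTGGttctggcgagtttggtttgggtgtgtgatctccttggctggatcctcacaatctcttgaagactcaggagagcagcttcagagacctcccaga
H2-Ob: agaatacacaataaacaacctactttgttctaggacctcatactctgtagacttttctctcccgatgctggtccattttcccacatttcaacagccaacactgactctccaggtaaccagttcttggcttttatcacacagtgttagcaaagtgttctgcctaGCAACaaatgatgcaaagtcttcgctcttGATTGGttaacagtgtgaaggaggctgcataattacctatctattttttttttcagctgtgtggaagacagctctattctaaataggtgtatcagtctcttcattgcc
H2-Oa: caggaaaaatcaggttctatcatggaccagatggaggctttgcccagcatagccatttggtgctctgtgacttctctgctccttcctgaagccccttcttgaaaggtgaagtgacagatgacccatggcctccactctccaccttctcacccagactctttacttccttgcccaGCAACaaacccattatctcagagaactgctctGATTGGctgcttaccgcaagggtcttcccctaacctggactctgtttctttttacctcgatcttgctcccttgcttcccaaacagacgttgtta
The H2-Eb1 window lies at chr17:34305617-34305916 on the plus strand, and its X and Y cores begin at positions -91 and -60, with the first base of the gene counted as 0. The H2-Aa window lies at chr17:34287774-34288073 on the minus strand, with cores at -81 and -49. The H2-Ob window lies at chr17:34238655-34238954 on the plus strand, with cores at -87 and -58. These spacings leave 26, 27 and 24 bases between the cores. The H2-Oa window, at chr17:34092129-34092428 on the plus strand, has its cores at -76 and -44 with 27 bases between them. The windows of H2-DMa held an X core in one and a Y core in the other but not the pair, and that of Ctss held neither core. No match says only that these letters are not in the window, and a match is a description of sequence.

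Values are log2 RMA signals as the authors deposited them, in which a difference of 1 is a doubling of signal. Array values have no read depth, and their number limits the precision. The upper quartile of signal was 7.84 to 8.09 in NDL arrays, 8.02 to 8.05 in Met1 arrays and 7.98 to 8.08 in SSM2 arrays. Across genes, arrays of the same line correlated at 0.947 to 0.986 for NDL, whereas the Met1 arrays gave 0.987 to 0.995 and the SSM2 arrays 0.962 to 0.983. The 3 measured Y-linked transcripts, absent from a female genome, spanned 2.61 to 3.85, and mean gene signal had its 25th percentile at 4.91. Differences between lines were tested with limma over all 19938 genes with Benjamini-Hochberg adjustment, and a gene is said to rise or fall where the adjusted p is under 0.05.

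In NDL tumours, signals of the class II set were low relative to Met1 tumours. All 9 differences, NDL minus Met1, were below 0, with a median of -0.91 against 0.06 over all genes. Of the 9 genes, 3 fell, H2-Ab1, H2-Ob and Ctss, and 0 rose, where 19.1% of all genes were called, 8.88% higher and 10.2% lower. The arrays of the lines did not overlap for 8 of the 9 genes, as for 38.2% of all genes. Between Met1 and SSM2 tumours, 3 of the 9 genes rose in Met1, Cd74, Ciita and H2-Ob, while H2-Eb1 fell and 5 were not called, where 11.8% of all genes were called, 7.1% higher and 4.71% lower. Arrays did not overlap for 7 of the 9, and for 31.7% of all genes. The median difference of the set, Met1 minus SSM2, was 1.1, against 0.04 over all genes. Between NDL and SSM2 the set split: H2-Eb1 fell in NDL, 0 of the other 8 genes were called, and 16.9% of all genes were called, 9.35% higher and 7.52% lower. H2-Eb1 was also the 1 gene of the set whose arrays did not overlap, against 31.6% of all genes. The median of those 8 differences, NDL minus SSM2, was 0.11, against 0.09 over all genes. The F-test over the 3 lines called 4 of the 9 genes, H2-Eb1, H2-Ob, Cd74 and Ciita, where it called 25.1% of all genes. The comparisons share arrays: each line enters a pair of them.

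**Figure D1:**
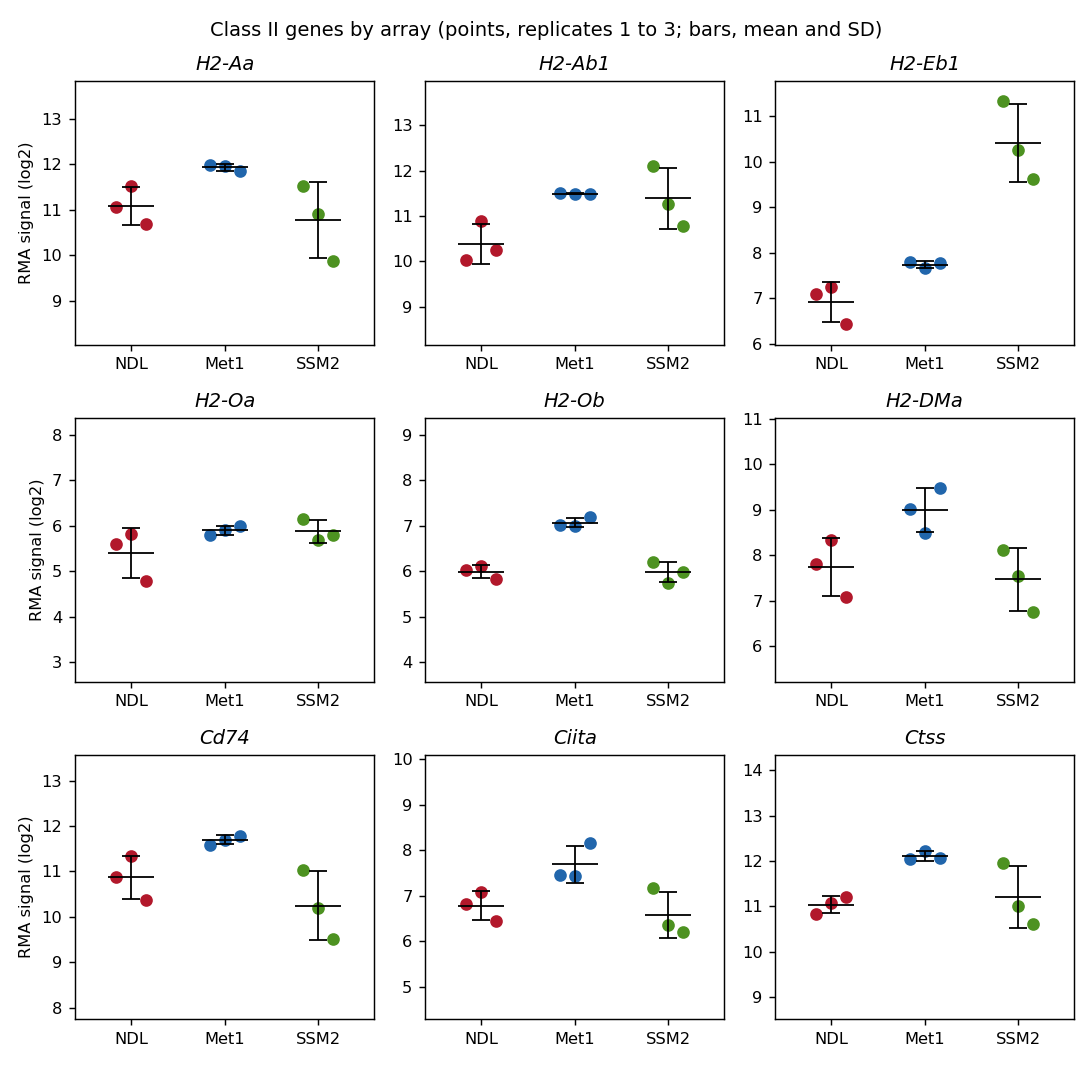
Log2 RMA signal of each of the 9 genes in every array, with a panel per gene, the lines in the order NDL, Met1 and SSM2, a point per array and a bar at the mean of the 3 arrays. H2-Eb1 lies at 9.62 to 11.33 in SSM2 arrays and at or below 7.79 in all others, while most other genes are highest in Met1.

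Among the classical chains, H2-Eb1, the beta chain of the I-E molecule, had log2 signals of 7.10, 7.24 and 6.43 in NDL tumours and 7.79, 7.66 and 7.78 in Met1 tumours, against 11.33, 10.26 and 9.62 in SSM2 tumours. All 3 SSM2 arrays lay above all 6 others and none of the groups overlapped. H2-Eb1 averaged 6.92 ± 0.44 in NDL and 10.41 ± 0.86 in SSM2 (SD, n = 3 each), a difference of -3.48 ± 0.39 (SE), or 11.2-fold lower in NDL, with a limma adjusted p of 0.000733. In Met1 it averaged 7.74 ± 0.07 (SD, n = 3), a difference from SSM2 of -2.66 ± 0.39 (SE), or 6.33-fold lower in Met1, with a limma adjusted p of 0.0035. The 95% intervals were -4.38 to -2.58 for NDL minus SSM2 and -3.56 to -1.76 for Met1 minus SSM2. NDL minus Met1 was -0.82, with a limma adjusted p of 0.187, and these arrays did not overlap. H2-Eb1 was read from 1 feature, and whether its probes match the sequence in each line was not examined. The folds are therefore those of the array signal. The same direction in both comparisons with SSM2 was called for 4.17% of all genes.

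H2-Aa, the alpha chain of the I-A molecule, had log2 signals of 11.06, 11.51 and 10.69 in NDL tumours, 11.99, 11.95 and 11.85 in Met1 tumours, and 11.52, 10.91 and 9.87 in SSM2 tumours. The Met1 arrays were the highest of the 9, and NDL and SSM2 overlapped. None of its differences was called: NDL minus Met1 was -0.85 ± 0.38 (SE, limma adjusted p = 0.162), NDL minus SSM2 was 0.31 (adjusted p = 0.572) and Met1 minus SSM2 was 1.16 (adjusted p = 0.093). The neighbours in its order, NDL and SSM2, thus differed by less than the SD of 0.84 among SSM2 samples. Leaving out SSM2 replicate 3 brought NDL minus Met1 to an adjusted p of 0.0375, and leaving out SSM2 replicate 1 brought Met1 minus SSM2 to 0.0244.

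H2-Ab1, the beta chain that pairs with H2-Aa, had log2 signals of 10.03, 10.88 and 10.25 in NDL tumours, 11.51, 11.49 and 11.48 in Met1 tumours, and 12.11, 11.26 and 10.78 in SSM2 tumours. Its NDL arrays lay below all Met1 arrays, while SSM2 straddled Met1. H2-Ab1 fell by 1.11 in NDL relative to Met1, or 2.16-fold, with an SE of 0.33 and a limma adjusted p of 0.0488. NDL minus SSM2 was -1.0 (limma adjusted p = 0.0723) and Met1 minus SSM2 was 0.11 (adjusted p = 0.921, 95% interval -0.65 to 0.86). The H2-Ab1 call between NDL and Met1 ended in 6 of 9 fits that left out 1 array, at adjusted p 0.0709 to 0.168, namely those without NDL replicates 1 or 3, any Met1 replicate or SSM2 replicate 2. Without SSM2 replicate 3, NDL minus SSM2 passed at an adjusted p of 0.0254. With cyclic loess scaling, NDL minus Met1 was -1.01 and was not called (limma adjusted p = 0.0675).

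Ahead of peptide loading, Cd74, the invariant chain that occupies the groove during assembly, had log2 signals of 10.88, 11.34 and 10.38 in NDL tumours, 11.59, 11.70 and 11.79 in Met1 tumours, and 11.04, 10.19 and 9.52 in SSM2 tumours. Every Met1 array was above every other array. Cd74 averaged 11.70 ± 0.10 in Met1 and 10.25 ± 0.76 in SSM2 (SD, n = 3 each), and rose in Met1 by 1.44 ± 0.37 (SE), or 2.72-fold, with a limma adjusted p of 0.0379. NDL minus Met1 was -0.83 (limma adjusted p = 0.159) and NDL minus SSM2 was 0.61 (adjusted p = 0.263). The call between Met1 and SSM2 ended in 6 of 9 fits that left out 1 array, at adjusted p 0.07 to 0.116: those without NDL replicate 1, any Met1 replicate, or SSM2 replicates 2 or 3. It also ended with cyclic loess scaling, at 1.36 (limma adjusted p = 0.0538).

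Ctss, the protease that trims the invariant chain, had log2 signals of 10.84, 11.08 and 11.20 in NDL tumours, 12.04, 12.23 and 12.06 in Met1 tumours, and 11.96, 11.02 and 10.62 in SSM2 tumours. NDL lay below all Met1 arrays, and SSM2 overlapped NDL. Ctss fell by 1.07 ± 0.30 (SE) in NDL relative to Met1, or 2.10-fold, with a limma adjusted p of 0.037. Met1 minus SSM2 was 0.91 (limma adjusted p = 0.0899), and NDL minus SSM2 was -0.16 (adjusted p = 0.721). The Ctss call ended in 6 of 9 fits that left out 1 array, at adjusted p 0.0532 to 0.13, without NDL replicates 1 or 2, any Met1 replicate, or SSM2 replicate 2. Without SSM2 replicate 1, Met1 minus SSM2 passed at an adjusted p of 0.00331.

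Of the loading complexes, H2-DMa, a chain of the peptide exchanger DM, had log2 signals of 7.81, 8.33 and 7.09 in NDL tumours, 9.01, 8.49 and 9.47 in Met1 tumours, and 8.12, 7.54 and 6.76 in SSM2 tumours. Met1 arrays were again the highest, and the NDL and SSM2 arrays overlapped. H2-DMa did not pass the test in any comparison, with differences of -1.25 for NDL minus Met1 (limma adjusted p = 0.0777), 0.27 for NDL minus SSM2 (adjusted p = 0.674) and 1.51 for Met1 minus SSM2 (adjusted p = 0.0551). Whether these differences passed changed with single arrays. NDL minus Met1 passed without SSM2 replicate 3 (limma adjusted p = 0.0476), and Met1 minus SSM2 passed without NDL replicate 3 or SSM2 replicate 1 (adjusted p = 0.0336 to 0.0407). The differences stayed at -1.25 without SSM2 replicate 3 and at 1.51 without NDL replicate 3, as those arrays are outside the comparison.

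H2-Ob, the beta chain of the DM modulator DO, had log2 signals of 6.03, 6.11 and 5.83 in NDL tumours, 7.03, 7.0 and 7.19 in Met1 tumours, and 6.20, 5.75 and 5.98 in SSM2 tumours. Met1 stood above the other lines with no overlap, and NDL and SSM2 lay on top of each other. H2-Ob fell by 1.08 ± 0.14 (SE) in NDL relative to Met1, or 2.12-fold (limma adjusted p = 0.00115), and rose by 1.1 ± 0.14 in Met1 relative to SSM2, or 2.14-fold (adjusted p = 0.00165). NDL minus SSM2 was 0.01 (limma adjusted p = 0.95, 95% interval -0.3 to 0.33). Such a pair of calls, lower in NDL than in Met1 and higher in Met1 than in SSM2, was made for 4.09% of all genes. Both calls held in all 9 fits that left out 1 array.

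H2-Oa, the alpha chain of DO, had log2 signals of 5.60, 5.83 and 4.78 in NDL tumours, 5.80, 5.90 and 6.00 in Met1 tumours, and 6.16, 5.68 and 5.80 in SSM2 tumours. All 3 lines overlapped and no comparison passed: NDL minus Met1 was -0.50 (limma adjusted p = 0.219), NDL minus SSM2 was -0.47 (adjusted p = 0.22) and Met1 minus SSM2 was 0.02 (adjusted p = 0.979, 95% interval -0.57 to 0.61). The chains of DO therefore did not give the same calls, although a test of the difference between them was not made.

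Ciita, the coactivator of the set, had log2 signals of 6.81, 7.08 and 6.45 in NDL tumours, 7.45, 7.44 and 8.17 in Met1 tumours, and 7.16, 6.36 and 6.21 in SSM2 tumours. Met1 arrays were the 3 highest, and NDL and SSM2 overlapped. Ciita averaged 7.69 ± 0.41 in Met1 and 6.58 ± 0.51 in SSM2 (SD, n = 3 each) and rose in Met1 by 1.11 ± 0.30 (SE), or 2.16-fold, with a limma adjusted p of 0.0485. NDL minus Met1 was -0.91 (limma adjusted p = 0.0702) and NDL minus SSM2 was 0.20 (adjusted p = 0.657). The Ciita call ended in 7 of 9 fits that left out 1 array, at adjusted p 0.0568 to 0.151: without NDL replicates 1 or 2, any Met1 replicate, or SSM2 replicates 2 or 3. NDL minus Met1 passed without SSM2 replicate 1 (adjusted p = 0.0344). With all arrays, Ciita was not called in either comparison of NDL, and in SSM2 tumours, where H2-Eb1 was highest, its mean was the lowest of the 3 lines, though not apart from NDL.

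**Figure D2:**
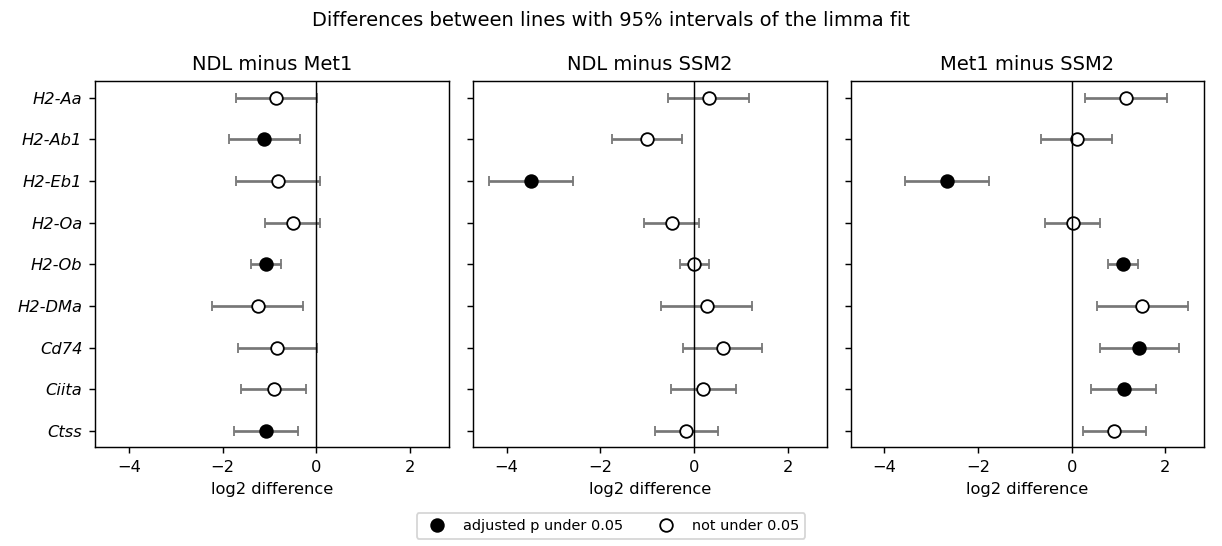
Log2 differences of the 9 genes in each comparison of lines, with the 95% interval of the limma fit; filled points have an adjusted p under 0.05. Between NDL and Met1 all points lie below 0, and against SSM2 only H2-Eb1 is called below 0.

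To set H2-Eb1 beside the rest without comparing levels of different probes, each gene was expressed as its deviation from its own mean over the 9 arrays. The median deviation of the other 8 genes was -0.23, 0.08 and -0.57 in NDL arrays, 0.62, 0.54 and 0.73 in Met1 arrays, and 0.21, -0.48 and -0.82 in SSM2 arrays. The deviation of H2-Eb1 minus that median was -1.03, -1.20 and -1.36 in NDL arrays and -1.19, -1.24 and -1.30 in Met1 arrays, against 2.77, 2.39 and 2.08 in SSM2 arrays. H2-Eb1 thus stood apart from the rest in SSM2 arrays by more than the whole range of those values within any line. Because each gene was centred on its own mean, the high SSM2 values of H2-Eb1 by themselves lower its NDL and Met1 deviations. Its negative values there are therefore not a separate departure. Between NDL and Met1, H2-Eb1 differed by -0.82, beside a median of -0.99 for the other 8 genes. The difference between H2-Eb1 and the other genes was chosen for description with its values known, and was not tested.

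**Figure D3:**
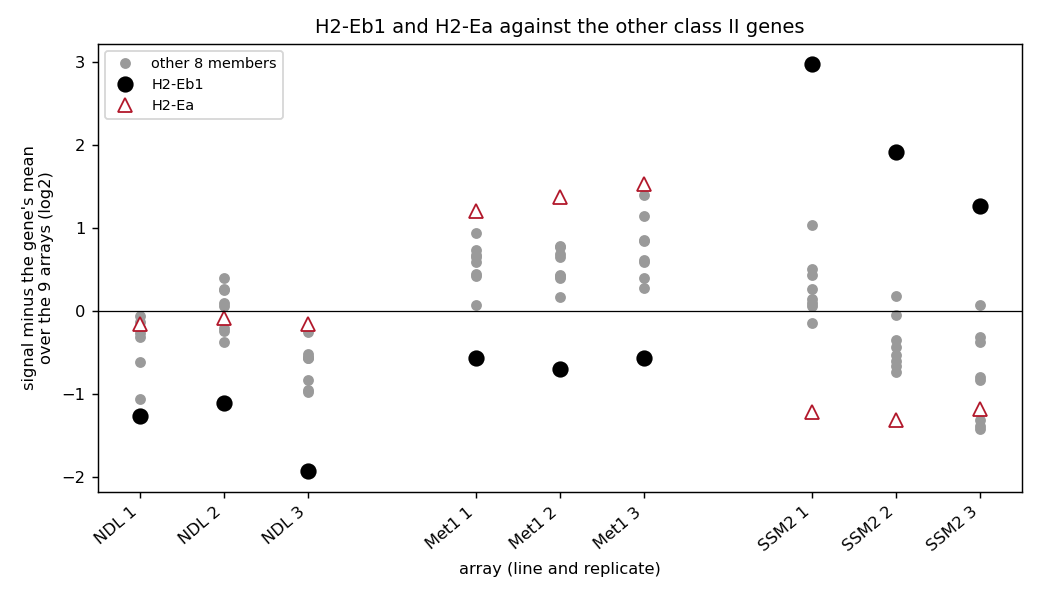
Deviation of each gene from its own mean over the 9 arrays, in log2 units, by array, with the lines in the order NDL, Met1 and SSM2. H2-Eb1 (filled black points) lies above the other 8 genes (grey) in the SSM2 arrays and below all of them in the NDL and Met1 arrays, while H2-Ea (open triangles) has its own lowest values in the SSM2 arrays. Centring on a gene's own mean ties these positions together, so the low NDL and Met1 points of H2-Eb1 are not a separate departure.

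Within SSM2 and NDL the genes tended to share their highest and lowest arrays. In SSM2, replicate 1 was the highest array for 9 of 9 genes and replicate 3 the lowest for 7 of 9. In NDL, replicate 2 was the highest for 8 of 9 and replicate 3 the lowest for 7 of 9. In Met1 no array held such a place: replicates 1, 2 and 3 were the highest for 3, 1 and 5 genes. The median range of a gene among arrays was 0.82 in NDL (0.28 to 1.25), 0.20 in Met1 (0.02 to 0.98) and 1.33 in SSM2 (0.45 to 1.71). H2-Eb1 had the same highest and lowest arrays within SSM2 as most of the set. Pan-leukocyte markers had mean log2 signals of 8.23, 8.65 and 8.32 in NDL arrays, 9.64, 9.64 and 9.95 in Met1 arrays, and 9.65, 8.79 and 8.17 in SSM2 arrays, so replicate 1 was highest and replicate 3 lowest in SSM2 for these markers too.

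H2-Ea, the alpha chain that pairs with H2-Eb1 in the I-E molecule, was measured as a gene outside the set. It is defective in C57BL/6 mice, and whether it is intact in FVB/N hosts or in the lines was not examined. It had log2 signals of 5.66, 5.75 and 5.66 in NDL tumours, 7.03, 7.19 and 7.36 in Met1 tumours, and 4.61, 4.51 and 4.65 in SSM2 tumours. H2-Ea differed between every pair of lines and lay lowest in SSM2, where H2-Eb1 was highest. It fell by 1.5 in NDL relative to Met1 (limma adjusted p = 7.55e-05), rose by 1.1 in NDL relative to SSM2 (adjusted p = 0.000348) and rose by 2.6 in Met1 relative to SSM2 (adjusted p = 1.31e-05), with an SE of 0.11. Its SSM2 signals lay under the 25th percentile of gene signal, so the size of those differences is uncertain.

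Other genes of the pathway were read from lists. Of all genes, 19.1% were called for NDL minus Met1, 16.9% for NDL minus SSM2 and 11.8% for Met1 minus SSM2. Of 11 measured genes of loading and endosomal processing, 5 fell in NDL relative to Met1: H2-Ea, Ifi30, Lgmn, Ctsl and Ctsz, while 0 rose. The reductase Ifi30 had a difference of -0.82 (limma adjusted p = 0.0152), the asparagine endopeptidase Lgmn -1.30 (adjusted p = 0.00683), the protease Ctsl -1.51 (adjusted p = 0.0235) and the protease Ctsz -1.5 (adjusted p = 0.00165). Against SSM2, H2-Ea rose while Ctsl fell by 2.19 (limma adjusted p = 0.00561) and Ctsz by 1.26 (adjusted p = 0.00496) in NDL. Met1 minus SSM2 had 3 genes higher, H2-Ea, Ifi30 by 0.98 (limma adjusted p = 0.00988) and Lgmn by 1.26 (adjusted p = 0.0116), and 0 lower. The list medians were -0.70, 0.13 and 0.24 for NDL minus Met1, NDL minus SSM2 and Met1 minus SSM2.

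All 7 listed genes of the promoter complex were measured, comprising subunits of the X box factor RFX, of the Y box factor NF-Y and Creb1. Calls numbered 2, 3 and 2 of 7 for NDL minus Met1, NDL minus SSM2 and Met1 minus SSM2. The shares of all genes called were 19.1%, 16.9% and 11.8%. Rfx5 and Nfya fell in NDL relative to Met1, by 0.75 (limma adjusted p = 0.00236) and 0.80 (adjusted p = 0.000963), and rose in Met1 relative to SSM2, by 0.53 (adjusted p = 0.0169) and 0.49 (adjusted p = 0.0142). Relative to SSM2, the RFX subunits Rfxap and Rfxank rose in NDL by 0.48 (limma adjusted p = 0.0374) and 0.70 (adjusted p = 0.0314), while the NF-Y subunit Nfyb fell by 1.13 (adjusted p = 0.0368). The remaining members of the list did not pass in any comparison.

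Of 11 measured genes on the interferon gamma route to Ciita, 2 fell in NDL relative to Met1, the receptor chain Ifngr1 by 1.39 (limma adjusted p = 0.0396) and the myeloid factor Spi1 by 0.94 (adjusted p = 0.0477). That count is near the share of all genes called between NDL and Met1, 19.1%. For NDL minus SSM2, 1 of 11 was called, against 16.9% of all genes, and for Met1 minus SSM2 3 of 11, against 11.8%. The kinase Jak2 fell relative to SSM2 with a difference of -3.66 in NDL (limma adjusted p = 0.00656) and -3.02 in Met1 (adjusted p = 0.0185), so it shared with H2-Eb1 a called high signal in SSM2. Its NDL arrays were widely spread, at 6.55, 5.73 and 8.66 (SD 1.51), and its SSM2 arrays lay at 10.82, 10.13 and 10.99. Met1 minus SSM2 also had Irf8 higher by 1.20 (limma adjusted p = 0.0336) and Spi1 by 1.16 (adjusted p = 0.0295). Ifng, the ligand, was not called in any comparison, with differences of 0.03 for NDL minus Met1, 0.50 for NDL minus SSM2 and 0.47 for Met1 minus SSM2 (limma adjusted p = 0.945, 0.166 and 0.277).

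Of the markers of other cells, the macrophage list differed most often between NDL and Met1 among the leukocyte lists. The counts below stand against 19.1% of all genes called for NDL minus Met1, 16.9% for NDL minus SSM2 and 11.8% for Met1 minus SSM2. Of 11 macrophage markers, 8 fell in NDL relative to Met1, 2 fell in NDL relative to SSM2, and 5 rose and 1 fell in Met1 relative to SSM2. The 5 that rose were Csf1r by 1.56, Cd68 by 1.29, C1qa by 1.37, C1qc by 1.30 and Aif1 by 1.58, and the 1 that fell was Cd163. The mean log2 signal of the 11 markers ran from 8.06 to 8.56 in NDL arrays, 9.27 to 9.66 in Met1 arrays and 8.05 to 9.38 in SSM2 arrays. The scavenger receptor Cd163 had H2-Eb1's directions against SSM2, with differences of -2.31 in NDL (limma adjusted p = 0.00902) and -2.94 in Met1 (adjusted p = 0.00353). The mannose receptor Mrc1 was the other macrophage marker to fall in NDL relative to SSM2, at -2.14 (limma adjusted p = 0.00332). Of 6 pan-leukocyte markers, 1 fell in NDL relative to Met1, 1 fell in NDL relative to SSM2 and 2 rose in Met1 relative to SSM2. All 6 nonetheless lay below 0 for NDL minus Met1, with a median of -1.37, beside -0.91 for the 9 class II genes. Arrays of NDL and Met1 did not overlap for any of the 6, as for 38.2% of all genes. The 10 dendritic cell markers averaged 5.35 to 5.85 in NDL arrays, 5.69 to 5.86 in Met1 arrays and 5.41 to 5.73 in SSM2 arrays, and 0 were called between NDL and Met1. Against SSM2, Itgax rose in NDL by 1.07 (limma adjusted p = 0.0395) and Xcr1 rose in Met1 by 0.64 (adjusted p = 0.0208). None of the 8 measured B cell markers was called in any comparison. Ms4a1 (3.16 to 3.62), Cd79a (3.2 to 4.02) and Cr2 (3.59 to 4.19) lay near the Y-linked signals. Cd79b, Cd22, Pax5, Blk and Fcer2a lay above all Y-linked signals, between 4.22 and 5.82. Of 7 measured T cell markers, 2 fell in NDL relative to Met1 and 2 rose in Met1 relative to SSM2. Epithelial markers, 9 in number, averaged 10.44 to 10.59 in NDL arrays, 6.06 to 7.81 in Met1 arrays and 10.83 to 11.17 in SSM2 arrays, with all 9 higher in NDL than in Met1 and lower in Met1 than in SSM2. Of 6 fibroblast markers, which averaged 8.90 to 9.30 in NDL arrays, 8.17 to 9.13 in Met1 arrays and 9.15 to 10.83 in SSM2 arrays, 2 rose and 1 fell in NDL relative to Met1, 1 fell in NDL relative to SSM2, and 1 rose and 2 fell in Met1 relative to SSM2. Decorin (Dcn) also had H2-Eb1's directions, at -3.38 for NDL minus SSM2 (limma adjusted p = 0.0163) and -3.89 for Met1 minus SSM2 (adjusted p = 0.0103). The fibroblast marker that rose in Met1 relative to SSM2 was Pdgfra, by 1.54 (limma adjusted p = 0.0423). The same direction in both comparisons with SSM2 was called for 4.17% of all genes. Of 4 endothelial markers, 1 was called, Pecam1, at -0.79 for NDL minus SSM2 (limma adjusted p = 0.00529). The part of these markers in the class II differences was not tested, and the leukocyte covariate described next cannot separate it from the line.

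**Figure D4:**
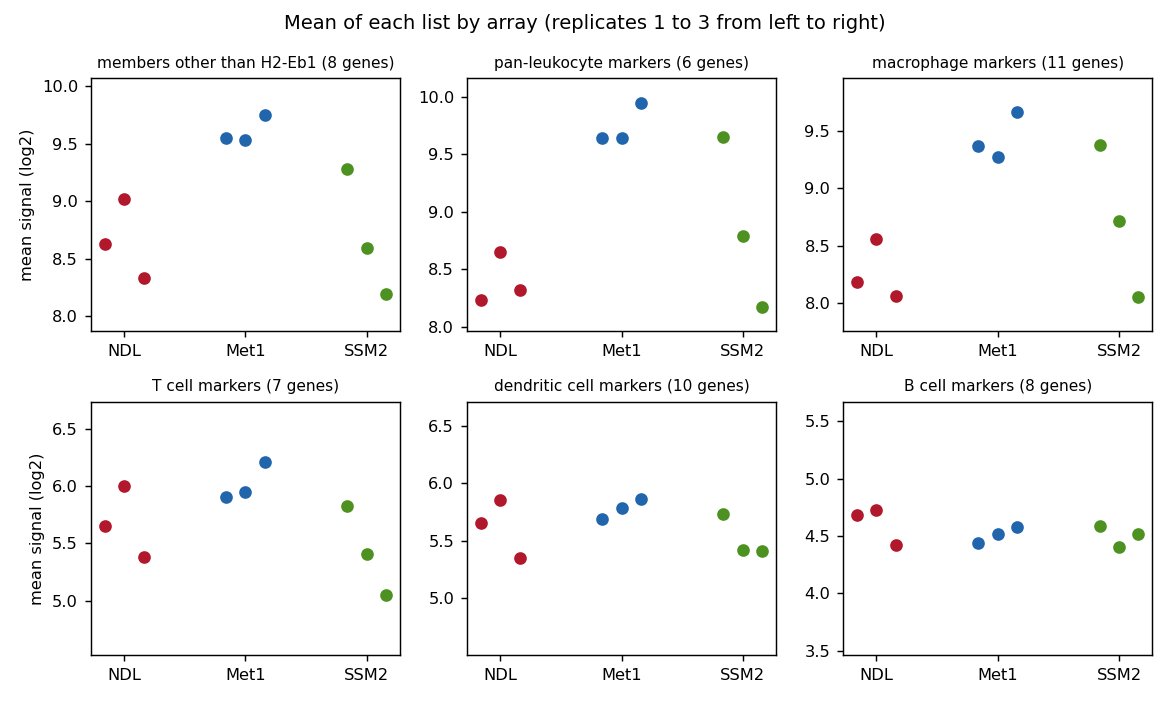
Mean log2 signal of the 8 genes other than H2-Eb1 and of 5 marker lists, a point per array in replicate order, with a separate vertical range in each panel. Pan-leukocyte markers run from 9.64 to 9.95 in Met1 arrays and macrophage markers from 9.27 to 9.66, above all NDL arrays, while the SSM2 arrays are spread out; B cell markers lie between 4.40 and 4.73 in all arrays.

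With the mean of the 6 pan-leukocyte markers as a covariate, an analysis chosen after seeing the data, 0 of the 9 genes were called between NDL and Met1, where 6.16% of all genes were, against 3 genes without it. H2-Ob, whose difference was then -0.80 (limma adjusted p = 0.0887), and Ctss, at 0.01 (adjusted p = 0.986), were among the genes that lost their call. H2-Eb1 kept its call: NDL minus SSM2 was -2.96 (limma adjusted p = 0.00024) and Met1 minus SSM2 was -3.61 (adjusted p = 0.000718), where 14.1% and 7.72% of all genes were called. For Cd74, NDL minus SSM2 became 1.11 and was then called (limma adjusted p = 0.00981), and the Met1 minus SSM2 calls of Cd74, at 0.54 (adjusted p = 0.279), and Ciita, at 0.44 (adjusted p = 0.459), were lost. H2-Ob kept its call between Met1 and SSM2, at 0.92 (limma adjusted p = 0.0227). A covariate that itself differs between lines takes part of the line difference with it. This covariate ran from 8.23 to 8.65 in NDL arrays and from 9.64 to 9.95 in Met1 arrays, without overlap. For NDL minus Met1 the fit therefore cannot tell the markers from the line.

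The genes whose pattern over the 9 arrays was most like the mean of the 8 genes other than H2-Eb1 were Il10ra (Pearson r = 0.993), Nckap1l (0.989), Plbd1 (0.989), C5ar1 (0.989), Lcp2 (0.989), Pld4 (0.988), Inpp5d (0.987) and Wdfy4 (0.986), among 9962 genes of above-median signal. For H2-Eb1 they were Fgfr3 (0.985), Bsdc1 (0.982), Fhl2 (0.973), D17H6S56E-5 (0.967) and Sqle (0.966). No gene is on both lists. These are descriptions over 9 arrays that share lines. D17H6S56E-5 lies on chromosome 17, 36 measured genes from H2-Eb1, and its difference was -4.67 for NDL minus SSM2 and -3.50 for Met1 minus SSM2.

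The neighbourhood of H2-Eb1 was examined after its values were seen. Within 25 measured genes on either side lie 45 genes that are not members and, H2-Eb1 included, 6 that are. Relative to SSM2, 0 of the 45 fell in NDL and 0 fell in Met1, where 7.52% and 4.71% of all genes did, and where 4.17% of all genes were called in the same direction in both. Of these neighbours, 3 rose in NDL relative to SSM2, H2-Ea, H2-Ke6 and Vps52, and 5 rose in Met1 relative to SSM2, H2-Ea, Atf6b, Notch4, Ppt2 and Vps52, where 9.35% and 7.1% of all genes rose. The median of the 45 differences was 0.06 for NDL minus SSM2 and 0.02 for Met1 minus SSM2. D17H6S56E-5, 36 measured genes away and so outside this window, fell in both NDL and Met1 relative to SSM2.

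**Figure D5:**
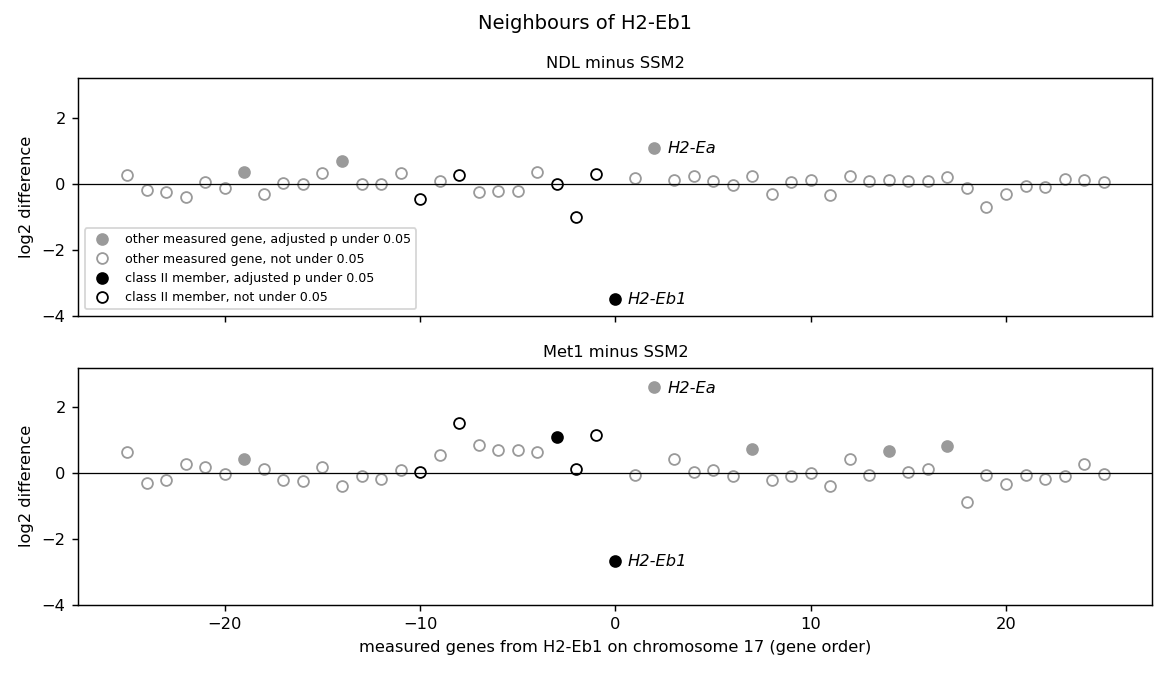
Log2 differences of genes within 25 measured genes of H2-Eb1, ordered by RefSeq position, for each comparison with SSM2; members are black, other genes grey, and filled points have an adjusted p under 0.05. H2-Eb1 lies furthest below 0 in both comparisons, at -3.48 for NDL minus SSM2 and -2.66 for Met1 minus SSM2.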

How the data were processed

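Total RNA of 9 tumour samples was measured on Affymetrix arrays. Deposited signals are on a log2 scale, made by the authors with RMA in oligo 1.40.2, per the submitters' processing notes, and were not scaled further. RMA in general corrects background, sets arrays to a common distribution and summarises probes, which can shrink differences of low signals. The genome build is not given in the sources used here. Of 35556 features, 21789 carried 1 gene symbol, 1621 several and 12146 none; names were checked against RefSeq GRCm38.p6 (21698 matched, 91 kept their symbol). For 999 genes with several features the one with the highest mean was used, leaving 19938 genes with no signal filter.

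Under R 4.3.3 (tables read with data.table version 1.17.8), limma 3.58.1 was fitted with lmFit and eBayes on the 9 arrays together (residual degrees of freedom 6, prior 2.42), two-sided contrasts, and Benjamini-Hochberg adjustment over all genes. Errors of differences are model SEs, and errors of means are SDs. Every called member of the pathway lists could be named, and the likeness rule named 8 genes for the other members and 5 for H2-Eb1. The members and lists were chosen with earlier results of these data known. A gene that the naming rule also asked for is not reported here. Replicate numbers did not pair samples (correlations of same-numbered deviations -0.347 to 0.288). Alternatives covered signal filters, scaling, fit options, a replicate block, fits of 2 lines, and each array left out in turn. After seeing the data, a leukocyte covariate and a fit without NDL replicates 1 and 2 were added. The procedure was also run on simulated data in which genes varied independently, so shifts shared by the genes of an array were not covered. Figures used matplotlib 3.10.9 and pandas 2.3.3.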

Additional observations from a re-analysis of the deposited data

How the results depend on the processing

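With 3 arrays per line, counts of called genes near the threshold moved with the processing. NDL replicates 1 and 2 had the smallest upper quartiles of signal, and the fit that omits both leaves 1 NDL array that is assumed to vary like the other lines; for Met1 minus SSM2 it is the same fit as that of the 2 lines alone, so it is left out of the next counts. H2-Eb1 was called lower than in SSM2 in 18 of 18 alternatives, at -3.87 to -2.96 for NDL and -3.61 to -2.20 for Met1; H2-Ob was called in 16 of 17 for NDL minus Met1 and in 17 of 17 for Met1 minus SSM2. The number of the 9 genes called between NDL and Met1, 3, became 1 with the replicate number as a block, 0 with the leukocyte covariate, 6 in the fit of those 2 lines alone, and 1 to 5 with an array left out (1 without NDL replicate 1, any Met1 replicate or SSM2 replicate 2, and 5 without SSM2 replicate 3). Between NDL and SSM2 it was 1, and 2 with the covariate or without NDL replicates 1 and 2, and 1 to 2 with an array left out (2 without SSM2 replicate 3). Between Met1 and SSM2 it was 4, and 2 with the covariate, without NDL replicates 1 and 2, or in the 2 lines alone, and 2 to 7 with an array left out (7 without SSM2 replicate 1, and 2 without NDL replicate 1, any Met1 replicate, or SSM2 replicates 2 or 3); the block gave 3. For the F-test it was 4, and 7 with the 25th percentile filter or equal medians, 2 with cyclic loess or the block, and 2 to 8 with an array left out (8 without SSM2 replicate 1, and 2 without NDL replicate 1, any Met1 replicate or SSM2 replicate 2). Leaving out arrays of a line outside a comparison does not alter the difference. NDL minus Met1 for H2-Aa stayed at -0.85 without SSM2 replicate 3, so such changes lie in the estimated spread and the adjustment over genes. The cause of the other changes was not tested. The replicate block is one alternative among these, since the numbers did not pair samples; it ended the calls of H2-Ab1 (limma adjusted p = 0.0714) and Ctss (0.0647) between NDL and Met1 and of Ciita (0.0951) between Met1 and SSM2.

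Sign changes concerned differences that were not called, except H2-Ab1 and Ctss between NDL and Met1 with the covariate. For NDL minus Met1 with the covariate, H2-Aa was 0.56, H2-Ab1 0.16, H2-Eb1 0.65, H2-DMa 0.18, Cd74 0.57, Ciita 0.13 and Ctss 0.01. For NDL minus SSM2, H2-Ob was -0.06 with cyclic loess and Ctss 0.22 with the covariate; with NDL replicate 3 as the lone NDL array, H2-Aa was -0.08, H2-Ob -0.15, H2-DMa -0.39 and Ciita -0.13; with an array left out, H2-Aa ran from -0.14 to 0.69, H2-Ob -0.10 to 0.12, H2-DMa -0.09 to 0.60 and Ctss -0.45 to 0.22. For Met1 minus SSM2, H2-Oa was -0.02 with cyclic loess and -0.29 with the covariate, H2-Ab1 was -0.71 with the covariate, and with an array left out H2-Oa ran from -0.08 to 0.16 and H2-Ab1 from -0.20 to 0.47.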
